A study of Mus musculus with 39 samples.

Results

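The 32 genes described here, of 55401 in the tables, encode proteins that neurons make in quantity: 13 of the synaptic vesicle release machinery, 3 granins of dense-core vesicles, 4 neurofilament subunits, 5 proteins of microtubules and the growth cone, and 7 further proteins of nerve cells in general. The rule gives them by name, and each was found under its Ensembl identifier in the count and FPKM tables. The libraries are 39 RNA-seq libraries of astrocytes of male mice, sorted on magnetic MicroBeads by ACSA-2, an epitope of the astrocyte surface. In nucleus accumbens (NAc) there were 8 libraries of susceptible mice, 7 of resilient mice and 7 of controls. In the tissue labelled PFC, which the labels do not spell out, there were 6 of susceptible mice, 5 of resilient mice and 6 of controls. Susceptible and resilient mice had been through chronic social defeat stress, in which a mouse repeatedly meets an aggressor and is afterwards classed by its social behaviour, and no group carries a stated transgene. The protocol in the labels names NAc tissue for every library, although 17 carry the tissue label PFC. RNA was sequenced from 500 pg of total RNA per library with a stranded kit for picogram input that does not select polyadenylated RNA.

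A neuron releases transmitter when a vesicle docks at the presynaptic membrane and a SNARE complex of syntaxin, SNAP-25 and the vesicle protein synaptobrevin pulls the membranes together, with synaptotagmin as the calcium sensor and complexin as a clamp. Peptides and granins leave from larger dense-core vesicles made in the cell body, and axons are held open by neurofilaments and stabilised microtubules. Astrocytes also release some vesicles and carry some of these proteins at low levels, but the genes are used as general markers of neurons, and in a sorted astrocyte preparation their level describes neuronal transcripts beside those of the sorted cells. In a bulk library, fewer cells of a type and less RNA per cell cannot be told apart, and the source of these transcripts was not tested.

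Promoter sequence is shown for 3 of the genes because the study's title names CREB, the factor that binds the palindrome TGACGTCA (the cAMP response element), and these windows hold it. The windows run from 250 bases before to 20 bases after the RefSeq transcript start on build GRCm38.p6: Syn1 (synapsin 1) at chrX:20920899-20921168 on the minus strand, Scg2 (secretogranin 2) at chr1:79440007-79440276 on the minus strand and Chgb (chromogranin B) at chr2:132781392-132781661 on the plus strand. Capitals mark TGACGTCA and, in Syn1 and Scg2, TTCAGCACC, the left part of the RE1 element that the neuronal gene repressor REST binds, which in Scg2 lies on the opposite strand and so reads GGTGCTGAA.
Syn1: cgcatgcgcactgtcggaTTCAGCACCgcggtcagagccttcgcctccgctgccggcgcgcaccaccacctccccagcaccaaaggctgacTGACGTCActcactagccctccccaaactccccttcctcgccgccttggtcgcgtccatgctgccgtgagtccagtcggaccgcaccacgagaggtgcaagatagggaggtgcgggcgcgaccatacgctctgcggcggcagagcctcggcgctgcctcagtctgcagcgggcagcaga
Scg2: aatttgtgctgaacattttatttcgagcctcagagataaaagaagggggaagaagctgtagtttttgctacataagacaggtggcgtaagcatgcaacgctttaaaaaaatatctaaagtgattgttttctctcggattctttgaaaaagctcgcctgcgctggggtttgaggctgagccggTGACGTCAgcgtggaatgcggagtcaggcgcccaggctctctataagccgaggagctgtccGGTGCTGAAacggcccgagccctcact
Chgb: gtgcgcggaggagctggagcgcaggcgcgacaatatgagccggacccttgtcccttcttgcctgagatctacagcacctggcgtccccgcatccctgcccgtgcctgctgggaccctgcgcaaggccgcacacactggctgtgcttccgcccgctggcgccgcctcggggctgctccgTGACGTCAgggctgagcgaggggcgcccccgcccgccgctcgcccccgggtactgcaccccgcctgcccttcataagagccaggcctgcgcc
The first base of TGACGTCA lay 159 bases before the start in Syn1, 68 in Scg2 and 72 in Chgb. Of the 32 genes, 23 had a window in the RefSeq table, and 3 of the 23 (13%) held TGACGTCA in the full window of 250 bases before to 50 after the start, against 2.03% of 27025 genes and 1.79% of 32851 windows, both strands searched. TTCAGCACC, searched after these windows had been looked at, stood in 2 of the 23 genes (8.7%) and in 0.433% of all genes, and began 232 bases before the start in Syn1 and 7 in Scg2. Chga (chromogranin A) held TGACGTAA, a sequence 1 base away, which was also searched after looking and stood in 0.581% of all genes. A match is a description of these letters and shows no binding.

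Library totals ran from 941450 to 37339379 counts on genes, and 2114 to 69848 of each library's counts fell on the 32 genes. Levels are given as deposited FPKM, which are counts scaled to the library total and to the length of the whole gene span with its introns, so a gene with long introns has a low FPKM for the same number of transcripts. As a measure of reads spread over silent genes, the FPKM of 1479 chemosensory receptor genes was taken in each library and is called background here: it equalled 13.4 to 81.1% of what an even cover of all gene spans would give. The 12 astrocyte markers were present in every library, with 10 to 12 of the 12 at 2 times background or more and none at 0, and their summed level ran from 44.1 to 545 FPKM. Each library carries its own mouse number, and the labels do not settle whether NAc and PFC libraries of consecutive numbers come from the same mouse, so each p-value measures only how these libraries, as labelled, vary.

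The summed level of the 32 genes was highest in PFC libraries of low sample number. In NAc the sum had a lowest, median and highest value of 32.1, 35.9 and 40.6 FPKM in susceptible, 29.2, 31.1 and 45.0 FPKM in resilient and 30.5, 36.4 and 60.9 FPKM in control libraries. In PFC it had 35.7, 44.3 and 142 FPKM in susceptible and 34.6, 50.2 and 156 FPKM in control libraries, and 143, 85.8, 47.1, 33.9 and 39.1 FPKM in the 5 resilient libraries in order of sample number. The 3 conditions overlapped within each region. The libraries that stood apart were those of PFC sample numbers 1, 3, 5, 7, 9 and 11, called low-numbered here, a pair from each condition: 142 and 59.7 FPKM in susceptible, 143 and 85.8 FPKM in resilient and 96.2 and 156 FPKM in control mice. They averaged 114 ± 38.5 FPKM (SD, n = 6), the 11 high-numbered PFC libraries, of sample numbers 15 to 47, averaged 41.6 ± 6.72 (n = 11), and the 22 NAc libraries 36.6 ± 6.98 (n = 22). The 5 NAc libraries with numbers in the same range, 2 to 12, had 32.1 to 45.0 FPKM. Of the NAc libraries only control replicate 3 lay above the highest of these 5, resilient replicate 1. That library had 29.96 FPKM without Vamp2. The highest NAc value, 60.9 FPKM in control replicate 3, came from the shallowest library of all, with 941450 counts, and overlapped the lowest of the 6. The split by sample number was made after these values were seen, so it describes the libraries and carries no test.

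**Figure D1:**
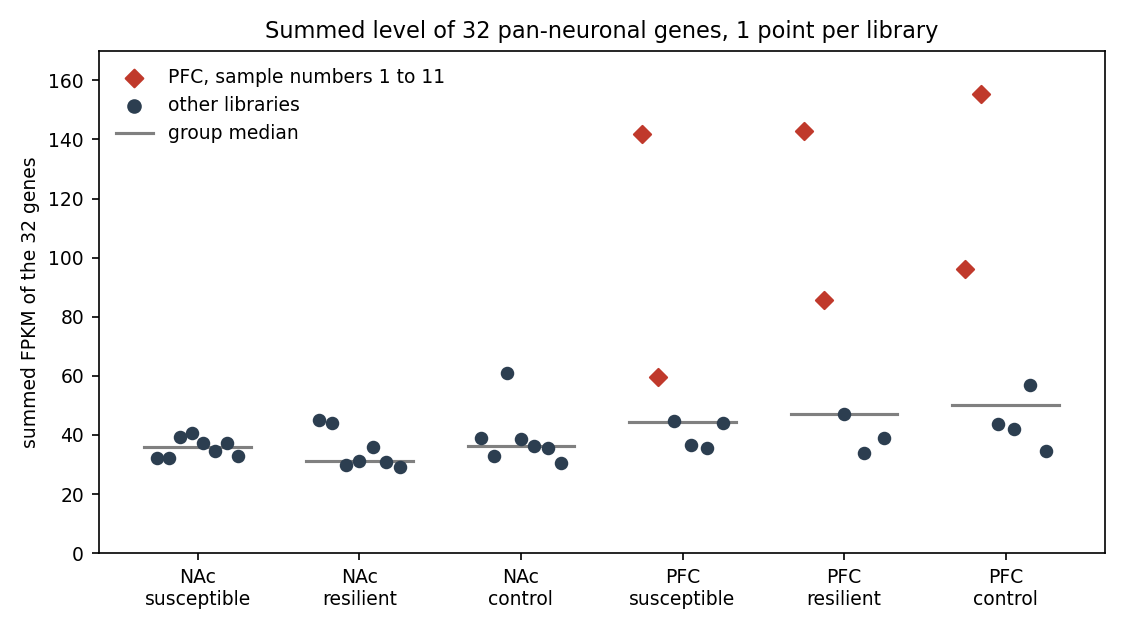
Summed FPKM of the 32 genes (y axis) in each of the 39 libraries, by region and condition on the x axis, with points for libraries and a line for the group median. The 6 PFC libraries of sample numbers 1 to 11, marked apart, lie between 59.7 and 156 FPKM, while the other 11 PFC libraries lie between 33.9 and 56.7 FPKM.

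Relative to background the gap was wider. The median of the 32 genes lay 3.21 to 24.6 times above background in the 6 libraries, 1.66 to 3.20 times in the high-numbered PFC libraries and 1.28 to 4.16 times in NAc. At 2 times background or more stood all 32 genes in 5 of the 6 libraries and 26 in PFC susceptible replicate 2, against 11 to 28 genes in the high-numbered PFC libraries and 3 to 26 in NAc. The share of all genes at that level was not counted, and a lower background by itself raises these multiples and counts. Background itself was lower in the 6, at 13.4 to 43.6% of an even cover, than in the high-numbered PFC libraries, at 46.1 to 71.5%, and its part in the FPKM difference was not tested. With background subtracted, the sums were 49.0 to 150.2 FPKM in the 6, 16.4 to 43.7 FPKM in the high-numbered PFC libraries and 9.40 to 52.2 FPKM in NAc.

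**Figure D2:**
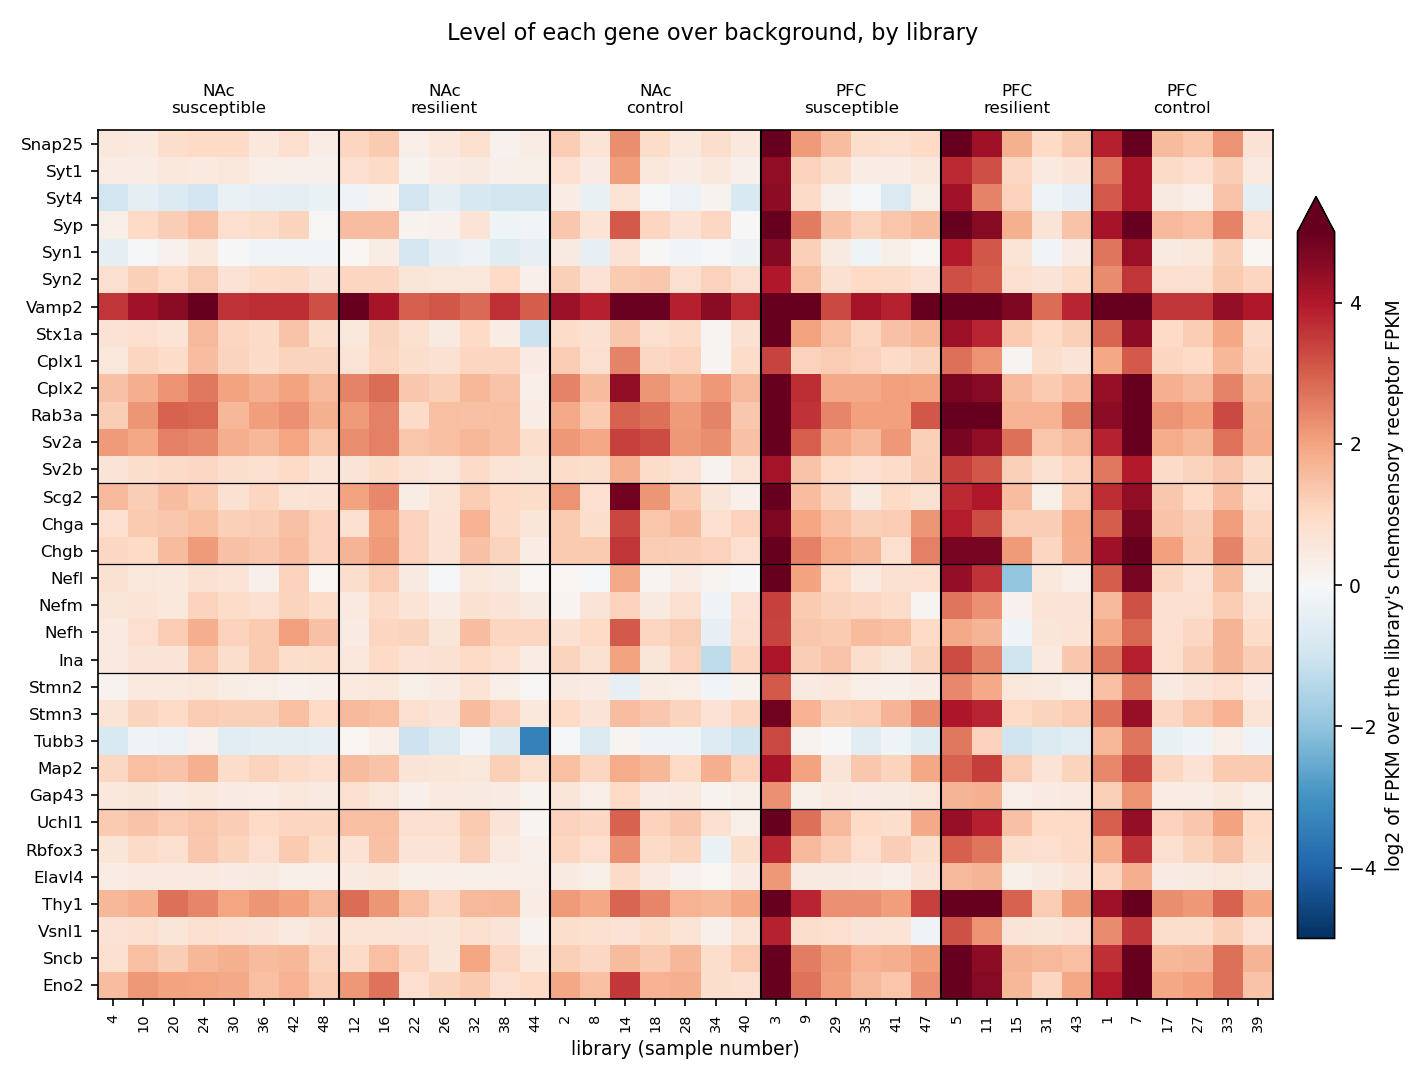
Level of each of the 32 genes (vertical axis, by role) in each of the 39 libraries (horizontal axis, by group and, within it, by sample number), as log2 of its FPKM over that library's background, with colours saturating at 5. In 5 of the 6 PFC libraries of sample numbers 1 to 11, the leftmost in each PFC group, all 32 genes stand at 2 times background or more. Background was lower in these 6 than in the other PFC libraries, which by itself raises the multiples.

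Among the 13 genes of vesicle release, Vamp2, which encodes synaptobrevin 2, had the highest FPKM in every group, with medians over susceptible, resilient and control libraries of 5.82, 5.04 and 8.24 FPKM in NAc and 9.5, 12.0 and 7.82 FPKM in PFC. 97.8% of its span of 3.90 kb (chr11:69088490-69092384, mm10) is exon, which raises its FPKM relative to genes with long introns. Snap25, the SNARE of the presynaptic membrane, lies at chr2:136713453-136782428 with 9.85% of its span in exons. In PFC, Snap25 had 0.711, 1.12 and 6.24 FPKM in susceptible, 6.59, 2.74, 1.58, 1.10 and 1.15 FPKM in the 5 resilient and 0.725, 1.72 and 7.03 FPKM in control libraries. Here and below, groups of more than 5 libraries are given by their lowest, median and highest value and PFC resilient libraries in order of sample number. In NAc, Snap25 had 0.522, 0.666 and 0.951 FPKM in susceptible, 0.551, 0.799 and 1.01 FPKM in resilient and 0.650, 0.737 and 1.35 FPKM in control libraries. The high values all came from PFC libraries of sample numbers 1 to 11, and conditions overlapped in both regions.

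Syp encodes synaptophysin, an abundant vesicle membrane protein (chrX:7638471-7653256). In PFC, Syp had 0.955, 1.25 and 7.10 FPKM in susceptible, 7.39, 3.44, 1.60, 0.852 and 1.24 FPKM in the 5 resilient and 0.798, 1.92 and 8.05 FPKM in control libraries. In NAc, Syp had 0.511, 0.847 and 0.959 FPKM in susceptible, 0.402, 0.632 and 1.17 FPKM in resilient and 0.467, 0.742 and 2.30 FPKM in control libraries. It had the widest gap of the 32 genes between low-numbered and high-numbered PFC libraries, 5.48 ± 2.42 FPKM (SD, n = 6) against 1.30 ± 0.427 FPKM (n = 11), 4.23-fold. Syn1, whose product ties vesicles to the actin of the reserve pool (chrX:20860511-20921004), followed the same order. In PFC, Syn1 had 0.372, 0.601 and 2.47 FPKM in susceptible, 2.93, 1.24, 0.752, 0.502 and 0.614 FPKM in the 5 resilient and 0.479, 0.839 and 3.32 FPKM in control libraries. In NAc, Syn1 had 0.343, 0.427 and 0.484 FPKM in susceptible, 0.292, 0.418 and 0.529 FPKM in resilient and 0.345, 0.407 and 0.560 FPKM in control libraries. In NAc its median lay at 0.909 times background, with libraries between 0.564 and 1.67 times, so no NAc library reached 2 times background.

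Stx1a encodes syntaxin 1A, the partner of SNAP-25 (chr5:135023482-135051100). In PFC, Stx1a had 0.911, 1.26 and 3.24 FPKM in susceptible, 3.60, 2.04, 1.17, 1.09 and 1.06 FPKM in the 5 resilient and 0.868, 1.40 and 3.68 FPKM in control libraries. In NAc, Stx1a had 0.638, 0.893 and 1.19 FPKM in susceptible, 0.298, 0.747 and 0.999 FPKM in resilient and 0.497, 0.772 and 0.871 FPKM in control libraries. In resilient mice the highest NAc library, at 0.999 FPKM, lay just below the lowest PFC library, at 1.06 FPKM. How many of all genes separate so was not counted. Control libraries of the regions overlapped by a narrow margin. Rab3a, the small GTPase that guides vesicles to the membrane, had medians over susceptible, resilient and control libraries of 1.84, 1.38 and 1.94 FPKM in NAc and 2.87, 2.56 and 3.22 FPKM in PFC. The calcium sensor Syt1 had medians of 0.574, 0.691 and 0.608 FPKM in NAc and 0.651, 0.951 and 0.967 FPKM in PFC in the same order, and Syt4, a synaptotagmin that binds calcium poorly, had 0.293, 0.33 and 0.367 FPKM in NAc and 0.512, 0.816 and 0.889 FPKM in PFC. Syt4 lay below background in the typical NAc library, at 0.740 times, and reads of Gm26658, which overlaps it, make its counts uncertain.

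The other vesicle genes are given by group median in that order. Sv2a, a transporter-like glycoprotein of the vesicle membrane, had 1.67, 1.56 and 2.03 FPKM in NAc and 1.87, 3.12 and 2.24 FPKM in PFC, and its paralogue Sv2b 0.773, 0.826 and 0.730 FPKM in NAc and 0.861, 1.07 and 1.08 FPKM in PFC. The complexins differed in pattern: Cplx2 had 1.68, 1.33 and 1.61 FPKM in NAc and 1.83, 1.44 and 2.02 FPKM in PFC, and Cplx1 0.906, 0.926 and 0.873 FPKM in NAc and 0.891, 0.727 and 1.06 FPKM in PFC. Cplx1 was among the 4 genes with little or no gap between low-numbered and high-numbered PFC libraries (1.11-fold), while Cplx2 had 3.35-fold. Syn2, the second synapsin, had 0.811, 0.812 and 0.793 FPKM in NAc and 0.848, 0.880 and 0.966 FPKM in PFC. Syn2 overlaps Gm17482 and Syp overlaps Gm14703, and reads of the overlapping genes cannot be told apart where strand was not used in counting.

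The 3 granins are acidic proteins that help to build dense-core vesicles and are cut into peptides. Scg2 lies at chr1:79434669-79440120. In PFC, Scg2 had 0.590, 0.910 and 4.13 FPKM in susceptible, 2.50, 2.36, 1.37, 0.668 and 1.11 FPKM in the 5 resilient and 0.788, 1.24 and 3.67 FPKM in control libraries. In NAc, Scg2 had 0.716, 0.851 and 1.46 FPKM in susceptible, 0.660, 1.16 and 2.18 FPKM in resilient and 0.548, 1.11 and 7.79 FPKM in control libraries. Its highest library was NAc control replicate 3 at 7.79 FPKM, above all 6 low-numbered PFC libraries, and the other NAc libraries stayed at or below 2.18 FPKM. Chgb had medians of 1.16, 1.14 and 1.02 FPKM in NAc and 1.88, 2.03 and 2.19 FPKM in PFC and Chga of 1.03, 0.945 and 1.01 FPKM in NAc and 1.36, 1.40 and 1.54 FPKM in PFC, both highest in PFC control replicate 2, at 8.40 and 4.33 FPKM.

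Neurofilament genes split. Nefl, the light subunit (chr14:68083863-68089095), had medians over susceptible, resilient and control libraries of 0.559, 0.698 and 0.463 FPKM in NAc and 0.859, 0.789 and 1.14 FPKM in PFC, and 3.97-fold more in the low-numbered than in the high-numbered PFC libraries. Nefm, the medium subunit, had 0.753, 0.795 and 0.603 FPKM in NAc and 0.849, 0.722 and 0.878 FPKM in PFC and 1.30-fold, and alpha-internexin (Ina) 0.822, 0.844 and 0.896 FPKM in NAc and 0.786, 0.812 and 1.25 FPKM in PFC and 1.67-fold. Nefl lies within the span of Nefm on the opposite strand, so reads of the pair are uncertain. Nefh, the heavy subunit (chr11:4938754-4948064), showed no such gap in FPKM. In PFC, Nefh had 0.703, 1.15 and 1.30 FPKM in susceptible, 0.691, 0.474, 0.402, 0.824 and 0.742 FPKM in the 5 resilient and 0.839, 1.05 and 1.32 FPKM in control libraries. In NAc, Nefh had 0.670, 1.07 and 1.80 FPKM in susceptible, 0.514, 0.992 and 1.46 FPKM in resilient and 0.338, 0.795 and 2.28 FPKM in control libraries. None of the 6 low-numbered PFC libraries was among its 5 highest, and its highest library was NAc control replicate 3. Its mean was 0.891 ± 0.275 FPKM (SD, n = 6) in low-numbered and 0.959 ± 0.293 FPKM (n = 11) in high-numbered PFC libraries (0.930-fold), a difference within the spread. Over background, which was lower in the low-numbered libraries, the order was the reverse, with medians of 3.72 and 1.99 times background.

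Of the genes of microtubules and the growth cone, Stmn3 (a stathmin, which binds free tubulin) had group medians of 0.905, 1.05 and 0.829 FPKM in NAc and 1.27, 1.17 and 1.34 FPKM in PFC, and Map2, which binds dendritic microtubules, 0.984, 1.07 and 1.03 FPKM in NAc and 1.22, 1.12 and 1.07 FPKM in PFC. Tubb3, the neuronal beta-tubulin, lies inside Gm20388 on the same strand, which makes its counts uncertain, and had 0.328, 0.334 and 0.301 FPKM in NAc and 0.372, 0.322 and 0.471 FPKM in PFC. Stmn2, the stathmin of growing axons (chr3:8509360-8561606), ran from 0.203 FPKM in NAc control replicate 3, on 10 counts, to 1.04 FPKM in PFC control replicate 2. In PFC, Stmn2 had 0.454, 0.522 and 0.870 FPKM in susceptible, 0.982, 0.546, 0.692, 0.736 and 0.587 FPKM in the 5 resilient and 0.588, 0.756 and 1.04 FPKM in control libraries. In NAc, Stmn2 had 0.466, 0.544 and 0.619 FPKM in susceptible, 0.550, 0.629 and 0.795 FPKM in resilient and 0.203, 0.518 and 0.604 FPKM in control libraries. Gap43, a growth cone protein, had medians of 0.609, 0.676 and 0.553 FPKM in NAc and 0.549, 0.608 and 0.642 FPKM in PFC and no higher mean in the low-numbered PFC libraries (0.930-fold).

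The remaining 7 genes are general neuronal markers. Sncb encodes beta-synuclein of the nerve terminal (chr13:54758860-54766595). In PFC, Sncb had 1.42, 1.73 and 6.72 FPKM in susceptible, 8.65, 3.22, 1.53, 1.67 and 1.30 FPKM in the 5 resilient and 1.43, 2.19 and 8.68 FPKM in control libraries. In NAc, Sncb had 0.833, 1.07 and 1.65 FPKM in susceptible, 0.767, 0.964 and 1.96 FPKM in resilient and 0.814, 0.932 and 1.42 FPKM in control libraries. In controls the lowest PFC library lay just above the highest NAc library, a separation not counted over all genes, and the other conditions overlapped. Thy1, a surface glycoprotein of projection neurons, had medians of 1.76, 1.47 and 1.77 FPKM in NAc and 3.11, 3.60 and 2.86 FPKM in PFC, and Eno2, neuron-specific enolase, 1.43, 1.24 and 1.30 FPKM in NAc and 1.90, 1.77 and 2.42 FPKM in PFC. Uchl1, a deubiquitinase abundant in neurons, had 0.974, 0.947 and 0.928 FPKM in NAc and 1.43, 1.29 and 1.46 FPKM in PFC, and Vsnl1, a neuronal calcium sensor, 0.680, 0.729 and 0.710 FPKM in NAc and 0.684, 0.760 and 0.932 FPKM in PFC. The neuronal splicing factor Rbfox3 (NeuN) had 0.80, 0.835 and 0.846 FPKM in NAc and 1.01, 0.932 and 1.04 FPKM in PFC. Elavl4, an RNA-binding protein of neurons, had 0.581, 0.610 and 0.530 FPKM in NAc and 0.539, 0.585 and 0.607 FPKM in PFC and the lowest ratio of low-numbered to high-numbered PFC libraries, 0.834-fold.

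Across the 32 genes, the ratio of the mean in the 6 low-numbered PFC libraries to the mean in the 11 high-numbered ones had a median of 2.35 and ran from 0.834 to 4.23. It was above 2 for 19 genes and under 1.2 for 4, namely Cplx1, Nefh, Gap43 and Elavl4. By role its median was 3.24 for vesicle release, 2.98 for granins, 1.48 for neurofilaments, 1.53 for microtubules and the growth cone and 2.56 for the other 7. Genes of short span had the larger ratios: the median was 3.24 over the 18 genes of up to 15 kb and 1.62 over the 14 longer ones, with a Spearman correlation of -0.484 over the 32 genes, which share their libraries and are not independent. Over background instead, the 4 genes with a ratio under 1.2 also had larger multiples in the 6: medians in the 6 and in the 11 were 5.71 and 2.08 times background for Cplx1, 3.72 and 1.99 times background for Nefh, 3.33 and 1.34 times background for Gap43 and 3.20 and 1.36 times background for Elavl4. Background itself was lower in the 6, at 13.4 to 43.6% of an even cover against 46.1 to 71.5% in the 11. A lower background by itself raises these multiples, so they show no higher FPKM. Of the 16841 genes in the tables whose mean FPKM over all 39 libraries reached 2 times background, the median ratio of FPKM was 0.987 and 12.7% were above 2. The 32 genes were not filtered in this way, so this share is given as a description. The 6 were set apart after the sum of the 32 genes was seen to be high there, so larger ratios for these genes follow from the choice. The highest library was one of the 6 for 28 genes, among them 22 in PFC control replicate 2. That count also follows from the choice of the 6, and the share of all genes highest in them was not counted. The genes highest outside the 6 were Cplx1, Scg2 and Nefh, all in NAc control replicate 3, and Elavl4, in NAc resilient replicate 7, where background was also highest at 81.1% of an even cover.

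**Figure D3:**
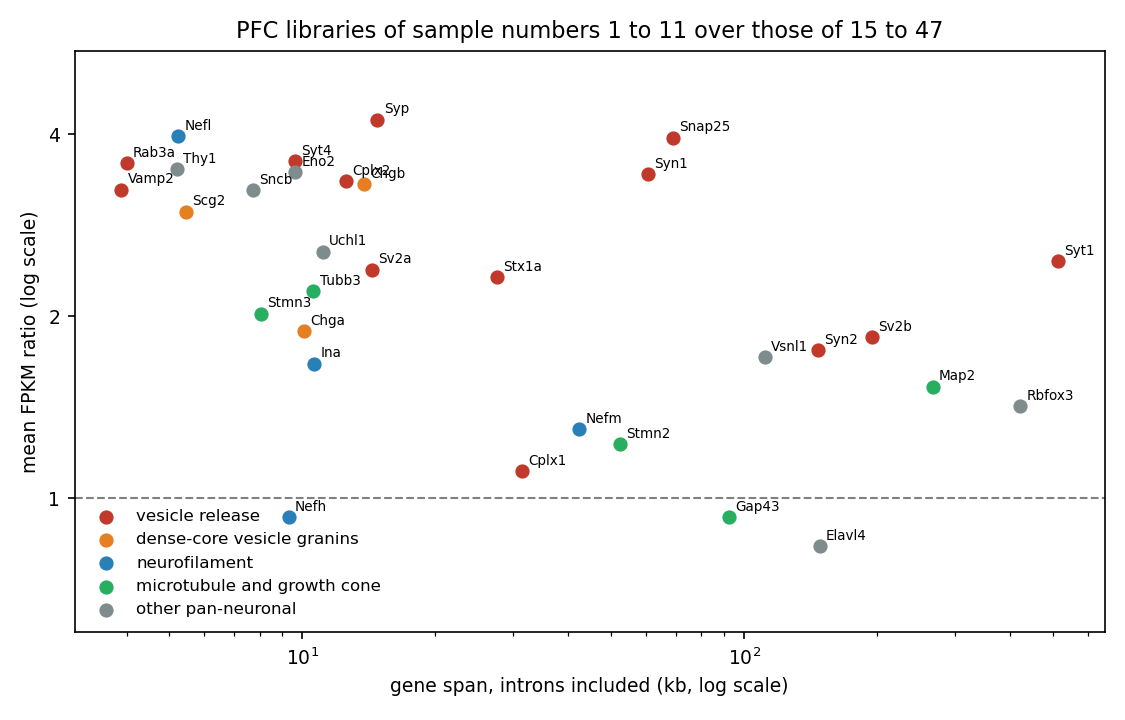
Ratio of the mean FPKM in the 6 PFC libraries of sample numbers 1 to 11 to that in the 11 of numbers 15 to 47 (y axis, log scale) against gene span in kb (x axis, log scale), 1 point a gene, coloured by role. Genes of up to 15 kb have a median ratio of 3.24 and longer genes 1.62, and Nefh, with a short span, lies at 0.930.

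Among markers of neuron types, the summed FPKM of the cortical list was high in the 6 PFC libraries and that of the striatal list was not. Over background, which was lower in the 6, both lists reached higher there. At 2 times background or more stood 6 to 9 of the 12 striatal genes in the 6 and 1 to 8 in the high-numbered PFC libraries. For the 12 cortical genes these counts were 8 to 12 and 4 to 11. A lower background by itself raises such counts. The summed level of 12 genes of cortical excitatory neurons was 20.6 to 63.2 FPKM in the 6 low-numbered PFC libraries, 11.2 to 23.5 FPKM in the high-numbered ones and 8.05 to 14.6 FPKM in NAc, with at most 1 of the 12 at 0, in NAc control replicate 3. Slc17a7, the vesicular glutamate transporter of cortical neurons, had medians of 11.5, 2.54 and 0.883 FPKM in that order, Nrgn 13.3, 2.67 and 1.03 FPKM and Neurod6 4.08, 0.953 and 0.736 FPKM. These 3 genes were chosen after their values were seen. Of the 12, 9 were lower in NAc than in PFC controls (54.4% of all genes were), with a median log2 fold change of -0.97. The other 3 were higher, at most at 0.077. In the order low-numbered PFC, high-numbered PFC and NAc, the sum of 12 genes of striatal projection neurons was 7.92 to 9.61, 6.33 to 10.9 and 8.95 to 28.9 FPKM, and that of 8 inhibitory neuron genes 3.71 to 6.82, 5.07 to 8.07 and 3.57 to 13.1 FPKM. In NAc the 3 libraries with the highest sums of the 32 genes, control replicate 3 and resilient replicates 1 and 2, also had the highest striatal sums, at 28.9, 17.1 and 19.4 FPKM. The place of resilient replicate 1 among these 3 rests on Vamp2. Without that gene its sum was 29.96 FPKM, below resilient replicate 5 at 32.27 FPKM, whose striatal sum was 11.97 FPKM. Control replicate 3 and resilient replicate 2 had the highest NAc sums without Vamp2 too. Of the lists that mark no neuron, 3 reached higher in the 6 and 2 did not: endothelial genes summed to 15.0 to 31.6 FPKM there against 5.92 to 15.2 FPKM in high-numbered PFC libraries, oligodendrocyte genes to 71.6 to 89.2 against 18.9 to 87.8 FPKM, and astrocyte genes to 188 to 545 against 44.1 to 289.9 FPKM, while microglial genes summed to 6.92 to 12.3 against 7.01 to 15.5 FPKM and those of oligodendrocyte precursors to 12.4 to 22.8 against 8.15 to 23.1 FPKM. The part of these cells in the level of the 32 genes was not tested.

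**Figure D4:**
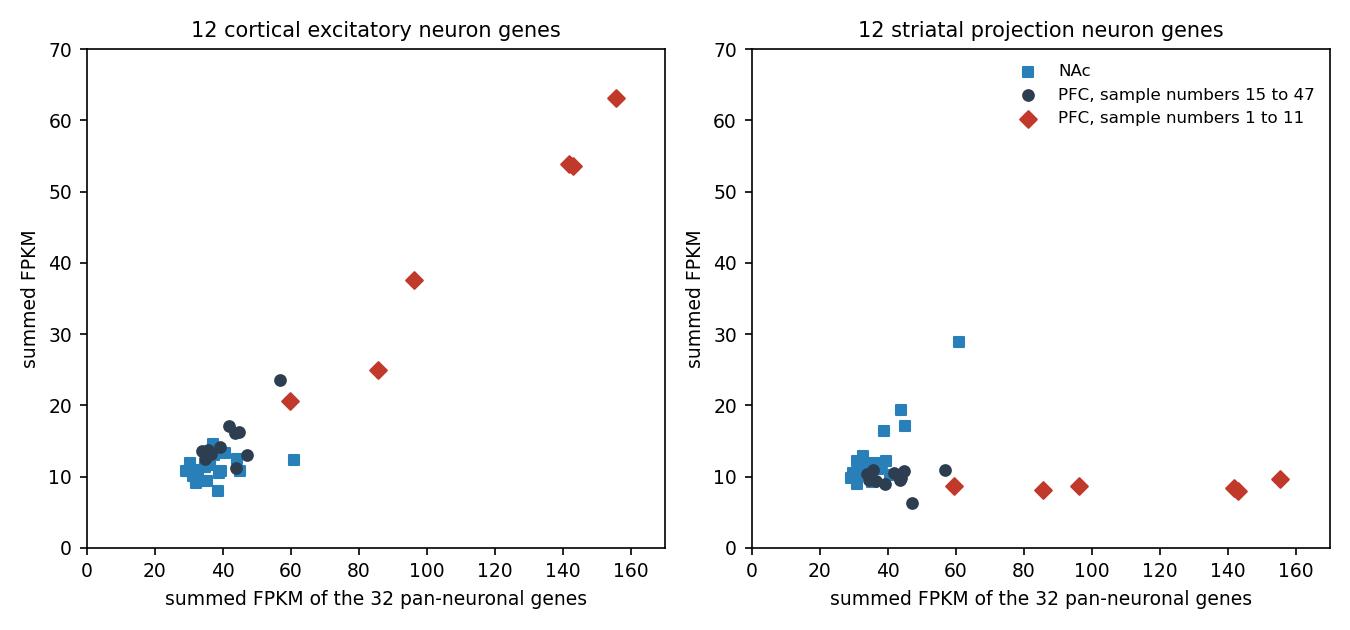
Summed FPKM of 12 cortical excitatory neuron genes (left) and of 12 striatal projection neuron genes (right) on the y axes against the summed FPKM of the 32 genes (x axis), 1 point a library. Cortical genes are highest in the 6 PFC libraries of sample numbers 1 to 11, at 20.6 to 63.2 FPKM, while striatal genes there stay at 7.92 to 9.61 FPKM, within the range of the other libraries.

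No gene of the 32 passed the test between conditions in NAc. All 32 were tested with edgeR's quasi-likelihood test on the counts, with Benjamini-Hochberg adjustment over 35943 genes and a call at an adjusted p under 0.05. In susceptible against control mice 0 of 32 passed (0.0% of all genes did), 4 had an unadjusted p under 0.05 (3.02% of all genes), 15 were higher and 17 lower (50.3% of all genes were lower), and the median log2 fold change was -0.024 against -0.0011 over all genes. DESeq2 and limma-voom also called none of the 32. The smallest p belonged to Nefm, with a log2 fold change of 0.31 ± 0.12 (SE), then to Syt1 at -0.36 ± 0.16, Syt4 at -0.47 ± 0.21 and Sv2a at -0.42 ± 0.20, each with an adjusted p of 0.9999 by edgeR. Nefm had medians of 0.753 FPKM in susceptible and 0.603 FPKM in control libraries, and the libraries overlapped. By role, 11 of 13 vesicle genes were lower (median -0.22) and all 4 neurofilament genes higher (median 0.30), none past the threshold. In the same comparison all 10 oligodendrocyte markers were lower (median -0.85), and the part of that in these values was not tested.

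In resilient against control NAc libraries, 0 of 32 passed (0.0% of all genes), 4 had an unadjusted p under 0.05 (6.14% of all genes), and the median was -0.038 against 0.013 over all genes. Stmn2 had 0.31 ± 0.12, Sv2a -0.50 ± 0.21, Nefl 0.48 ± 0.21 and Nefm 0.27 ± 0.12, all with an adjusted p of 0.755. Stmn2 levels overlapped, with 0.550, 0.629 and 0.795 FPKM in resilient and 0.203, 0.518 and 0.604 FPKM in control libraries as lowest, median and highest. All 10 oligodendrocyte markers were lower here too (median -1.18), as were 11 of 12 astrocyte markers (median -0.58). In susceptible against resilient NAc libraries 0 of 32 passed (0.0% of all genes), 0 had an unadjusted p under 0.05 (2.9% of all genes), and DESeq2 and limma-voom called none. The smallest p belonged to Stmn2 at -0.22 ± 0.11, Stx1a at 0.29 ± 0.15, Syt1 at -0.26 ± 0.15 and Gap43 at -0.16 ± 0.094, with an adjusted p of 0.998. The median was 0.0024 against 0.016 over all genes. The 3 comparisons share libraries with each other.

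In PFC no gene of the 32 passed either. In susceptible against control mice, 0 of 32 passed (0.0% of 32167 genes), 0 had an unadjusted p under 0.05 (0.482% of all genes), 27 were lower (52.5% of all genes were), and the median was -0.28 against -0.015 over all genes. Elavl4 had -0.19 ± 0.14, Gap43 -0.23 ± 0.18, Vsnl1 -0.52 ± 0.42 and Stmn2 -0.34 ± 0.29, all with an adjusted p of 1. The standard error of the widely ranging genes was large, as for Snap25 at -0.44 ± 0.74. The median depended on single libraries: leaving out 1 at a time, it ran from -0.86 without PFC susceptible replicate 1 to 0.19 without PFC control replicate 2. Without the 6 low-numbered libraries, which were set apart after the values were seen, it was -0.20. In that fit, given as a description, 28 were lower (53.0% of all genes), 4 had an unadjusted p under 0.05 (1.56% of all genes) and 0 were past the threshold. With all libraries and the background percent as a covariate the median was -0.38, with 31 lower (52.5% of all genes), 10 at an unadjusted p under 0.05 (3.29% of all genes) and 0 past the threshold. All 12 astrocyte markers were higher in the same comparison (median 0.74), and 10 of 12 cortical excitatory genes lower (median -0.26).

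In resilient against control PFC libraries, 0 of 32 passed (0.0% of all genes), 1 had an unadjusted p under 0.05 (0.597% of all genes), 22 were lower (52.6% of all genes were) and the median was -0.050. That gene was Nefh, with -0.66 ± 0.25 (SE) and an adjusted p of 1 by edgeR. Its 5 resilient libraries lay at 0.691, 0.474, 0.402, 0.824 and 0.742 FPKM and its 6 control libraries between 0.839 and 1.32 FPKM. The separation was narrow, and how many of all genes separate so was not counted. Of the resilient values of Nefh, those of replicates 2 and 3 rest on 22 and 6 counts. Without the 6 low-numbered libraries its fold change was -0.49 ± 0.23 (adjusted p = 1 by edgeR). Next were Cplx1 at -0.32 ± 0.28, Ina at -0.47 ± 0.46 and Vamp2 at 0.47 ± 0.67. Leaving out 1 library at a time, the median ran from -0.55 without PFC resilient replicate 1 to 0.43 without PFC control replicate 2, and it was also above 0 without PFC resilient replicate 3, 4 or 5 or PFC control replicate 1 (0.041 to 0.12). All 12 astrocyte markers (median 0.77) and all 10 oligodendrocyte markers (median 0.30) were higher in the same comparison, and their part in it was not tested. In susceptible against resilient PFC libraries 0 of 32 passed (0.0% of all genes), 1 had an unadjusted p under 0.05 (0.572% of all genes), 27 were lower (49.9% of all genes were) and the median was -0.24. Nefh again had the smallest p, at 0.70 ± 0.25, then Elavl4 at -0.25 ± 0.15, Gap43 at -0.22 ± 0.19 and Stmn2 at -0.29 ± 0.30, all with an adjusted p of 1. Leaving out 1 library at a time, the median ran from -0.78 without PFC susceptible replicate 1 to 0.27 without PFC resilient replicate 1, and without the 6 low-numbered libraries it was -0.013, with 16 higher and 16 lower (48.5% of all genes were lower). The 3 PFC comparisons share libraries, so the values of Nefh in 2 of them rest on the same 5 resilient libraries.

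Between regions nearly every gene was lower in NAc than in PFC. The margin was smaller without the 6 low-numbered PFC libraries, which follows from their having been set apart on the sum of these genes. In controls 0 of 32 passed edgeR's threshold (0.00262% of 38171 genes, 1 gene, did), 26 had an unadjusted p under 0.05 (5.04% of all genes), all 32 were lower in NAc (54.4% of all genes were), and the median log2 fold change was -1.10 against -0.023 over all genes. Sncb had -1.96 ± 0.51, Stx1a -1.5 ± 0.39, Stmn2 -0.80 ± 0.21 and Syn1 -1.92 ± 0.51, each with an adjusted p of 0.220. In susceptible mice 0 of 32 passed (0.00262% of all genes, 1 gene, did), 20 had an unadjusted p under 0.05 (6.23% of all genes), all 32 were lower (46.8% of all genes were), and the median was -0.96. The smallest p belonged to Snap25 at -1.86 ± 0.53, Syp at -1.93 ± 0.57, Thy1 at -1.69 ± 0.51 and Syt4 at -1.77 ± 0.54, each with an adjusted p of 0.718. In resilient mice 0 of 32 passed (0.0% of all genes), 21 had an unadjusted p under 0.05 (14.6% of all genes), 31 were lower (45.6% of all genes were), and the median was -0.99. Stx1a had -1.68 ± 0.40, Syt4 -2.25 ± 0.58, Sncb -2.0 ± 0.52 and Rab3a -2.15 ± 0.56, each with an adjusted p of 0.251, and Nefh was the gene higher in NAc, at 0.38 ± 0.28.

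Other tools placed a few of these genes past the threshold. DESeq2 called 3 in controls (0.212% of all genes, 81 in all), which were Sncb at -1.95 (adjusted p = 0.0344), Stx1a at -1.47 (adjusted p = 0.0338) and Syn1 at -1.87 (adjusted p = 0.0382). It called 3 in resilient mice (0.144% of all genes, 55 in all), Stx1a at -1.68 (adjusted p = 0.00944), Syn1 at -1.93 (adjusted p = 0.0352) and Snap25 at -2.11 (adjusted p = 0.0381). limma-voom with library weights called 0 of the 32 in every comparison. With the background percent of each library as a covariate in the edgeR fit, 12 of the 32 fell in NAc controls relative to PFC controls (0.778% of all genes, 297 in all), led by Syp at -1.37 (adjusted p = 0.00708), Nefl at -1.39 (adjusted p = 0.0143) and Stx1a at -1.04 (adjusted p = 0.0151). The covariate fit called none of the 32 in susceptible or resilient mice, and whether the conditions differ in this was not tested.

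Without the 6 low-numbered PFC libraries, the differences between regions were smaller. Those 6 were set apart after their summed levels were seen to be high, so a smaller gap follows from the choice. The values below, with their standard errors and counts at an unadjusted p under 0.05, are a description and no test of the regions. In susceptible mice the median was -0.13, with 26 genes lower (45.6% of all genes were) and 3 at an unadjusted p under 0.05 (2.07% of all genes). In resilient mice the median was -0.090, with 23 genes lower (43.2% of all genes were) and 5 at an unadjusted p under 0.05 (2.42% of all genes). In control mice the median was -0.35, with 27 genes lower (53.7% of all genes were) and 12 at an unadjusted p under 0.05 (6.56% of all genes). edgeR called none of the 32. In controls Sncb had -0.81 ± 0.19, Stx1a -0.64 ± 0.18, Syn1 -0.69 ± 0.18 and Snap25 -0.66 ± 0.22. Scg2 was on the other side of 0 in controls, at 0.55 ± 0.44 without the 6 and -0.41 ± 0.58 with all libraries. The ratio of the group means of the summed FPKM, NAc over PFC, was 0.593 in susceptible, 0.504 in resilient and 0.547 in control mice with all libraries, and 0.890, 0.877 and 0.883 in that order without the 6. In each of the 3 conditions, single libraries moved the median most: PFC susceptible replicate 1 (-0.26 without it), PFC resilient replicate 1 (-0.55) and PFC control replicate 2 (-0.58).

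**Figure D5:**
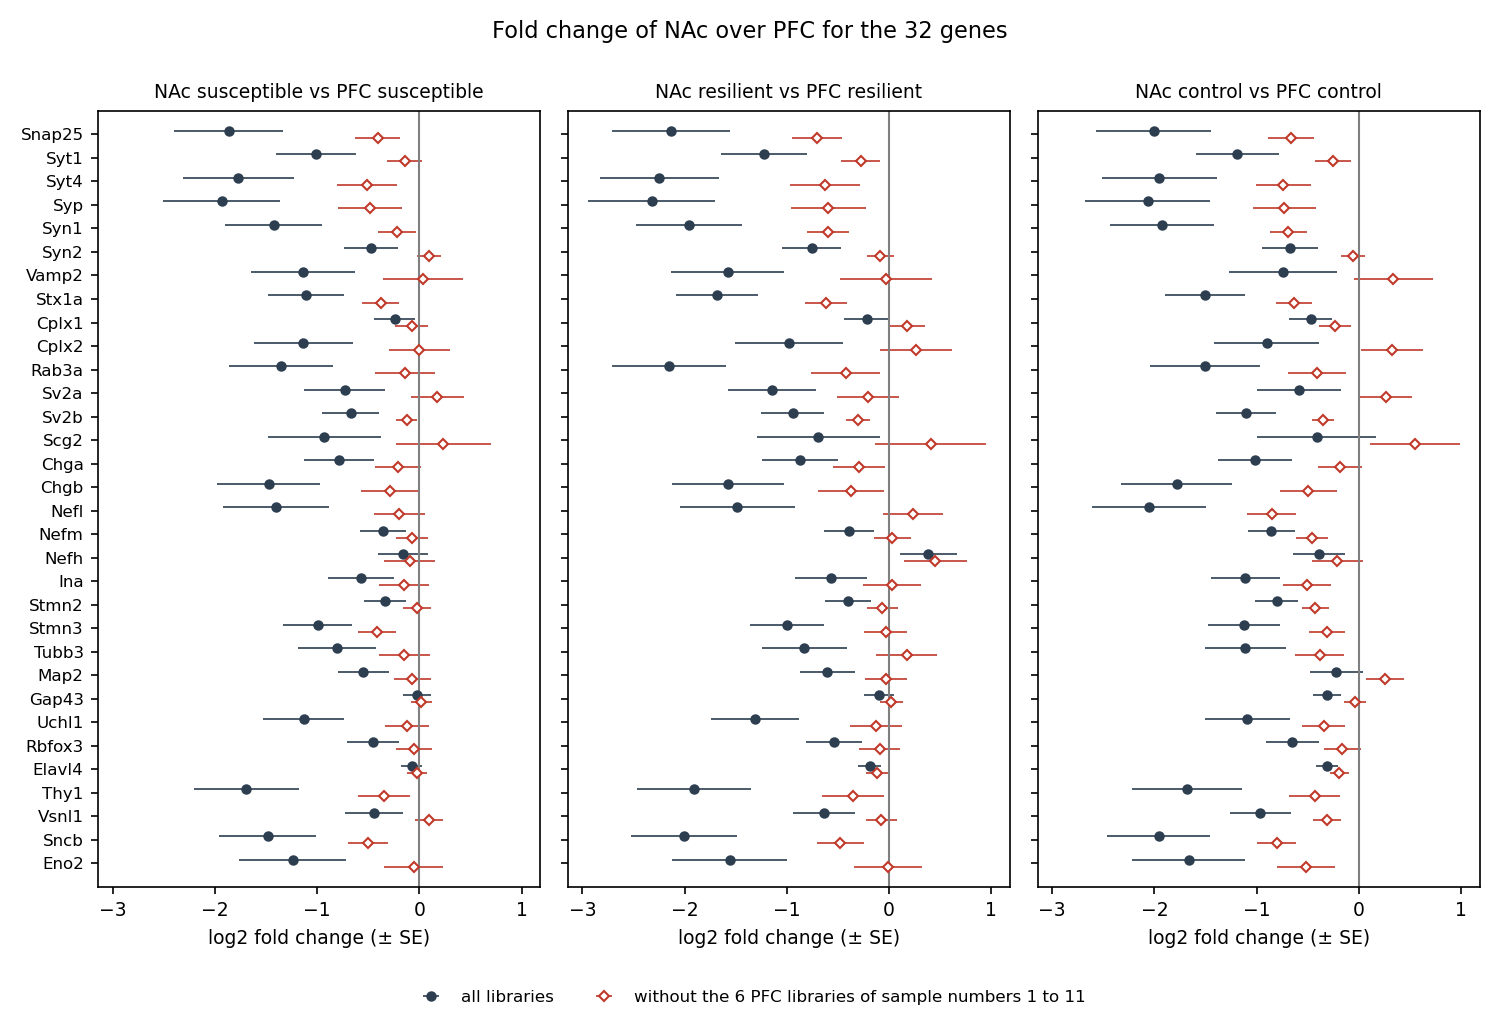
log2 fold change of NAc over PFC (x axis, ± SE from edgeR) for the 32 genes (y axis) in susceptible, resilient and control mice. Filled points use all libraries, with medians of -0.96, -0.99 and -1.10, and open points leave out the 6 PFC libraries of sample numbers 1 to 11, with medians of -0.13, -0.090 and -0.35.

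Whether a stress effect differed by region was tested in the fit of all 39 libraries. For susceptible against control mice 0 of 32 passed (0.0% of 38171 genes) and 0 had an unadjusted p under 0.05 (1.38% of all genes), with DESeq2 and limma-voom calling none. The median NAc effect minus PFC effect was 0.23 against 0.052 over all genes, and leaving out 1 library at a time it ran from -0.38 without PFC control replicate 2 to 0.83 without PFC susceptible replicate 1. Stmn2 had 0.47 ± 0.30 and Elavl4 0.24 ± 0.15. All 12 astrocyte markers (median -0.92) and all 10 oligodendrocyte markers (median -0.85) were lower in this comparison. For resilient against control mice 0 of 32 passed (0.0% of all genes) and 1 had an unadjusted p under 0.05 (3.45% of all genes), Nefh at 0.77 ± 0.38 with an adjusted p of 0.849, followed by Nefm at 0.46 ± 0.34. The median there was 0.037 against 0.070 over all genes, and leaving out 1 library at a time it ran from -0.59 without PFC control replicate 2 to 0.53 without PFC resilient replicate 1. It was also below 0 without PFC resilient replicate 3, 4 or 5, PFC control replicate 1, NAc resilient replicate 2 or NAc control replicate 2 or 7 (-0.18 to -0.0029). Over the 4 neurofilament genes it was 0.56 with all 4 above 0, and over the 13 vesicle genes -0.13 with 11 below 0. All 12 astrocyte markers (median -1.40, 5 at an unadjusted p under 0.05) and all 10 oligodendrocyte markers (median -1.45, 9 at an unadjusted p under 0.05) were lower, and the part of either list in these values was not tested.

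Other genes of the same pathways, in lists drawn up with earlier results of these data known, were mostly lower in NAc than in PFC controls. None of their 80 genes passed in any of the 11 comparisons. In NAc against PFC controls, other vesicle release genes had 28 of 33 lower, median -0.60, 20 at an unadjusted p under 0.05, other dense-core vesicle genes 6 of 9 lower, median -0.41, 4 at an unadjusted p under 0.05, other cytoskeleton genes 13 of 18 lower, median -0.23, 6 at an unadjusted p under 0.05, and other pan-neuronal genes 19 of 20 lower, median -0.80, 10 at an unadjusted p under 0.05. Over all genes 54.4% were lower and 5.04% had an unadjusted p under 0.05. The smallest p were those of Basp1, a growth cone protein, at -1.49 ± 0.37 and Bsn (bassoon, a scaffold of the active zone) at -1.76 ± 0.45. In resilient mice Bsn had -1.72 ± 0.46 and the secreted peptide precursor Vgf -2.0 ± 0.57, and in susceptible mice the long non-coding RNA Snhg11 had -2.28 ± 0.68 and Vgf -1.63 ± 0.52. In NAc susceptible against control mice the medians were -0.048, -0.085, -0.17 and -0.16 in the order above, with Ank3 at -0.31 ± 0.13. In NAc resilient against control mice they were -0.0055, -0.014, -0.38 and -0.066, with 15 of 18 other cytoskeleton genes lower and 5 at an unadjusted p under 0.05 (6.14% of all genes), led by Stmn1 at -1.10 ± 0.41 and Map1a at -1.06 ± 0.42. All 10 oligodendrocyte markers were lower in the same comparison (median -1.18), and their part in these values was not tested. In NAc susceptible against resilient mice the medians of the other neuronal lists were 0.022, 0.0064, 0.19 and -0.069, with Rab3c at -0.21 ± 0.086 and Pcsk2 at -0.22 ± 0.090.

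In PFC, in susceptible against control mice, 29 of 33 other vesicle genes (median -0.22), 5 of 9 other dense-core vesicle genes (-0.092), 11 of 18 other cytoskeleton genes (-0.086) and 19 of 20 other pan-neuronal genes (-0.23) were lower (52.5% of all genes), none at an unadjusted p under 0.05. Sh3gl2 had -0.33 ± 0.24 and Cadps -0.32 ± 0.27. In resilient against control mice 21 of 33 other vesicle genes (median -0.051), 2 of 9 other dense-core vesicle genes (0.19), 7 of 18 other cytoskeleton genes (0.052) and 11 of 20 other pan-neuronal genes (-0.025) were lower (52.6% of all genes), with Doc2b at -0.29 ± 0.18 and Scg3 at 0.73 ± 0.58. In susceptible against resilient mice 25 of 33 other vesicle genes (median -0.15), 8 of 9 other dense-core vesicle genes (-0.22), 15 of 18 other cytoskeleton genes (-0.17) and 18 of 20 other pan-neuronal genes (-0.24) were lower (49.9% of all genes), with Reln at -0.32 ± 0.20 and Doc2b at 0.28 ± 0.18. For the differences of the stress effects between regions, Prph at 0.99 ± 0.49 and Tubb4a at -1.19 ± 0.72 had the smallest p of the susceptible effect, and Tubb4a at -1.54 ± 0.75 and Scg3 at -1.39 ± 0.71 of the resilient effect.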

How the data were processed

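RNA-seq counts per gene for 39 libraries were made by the authors with featureCounts on mm10, per the submitters' processing notes; for aligner, annotation and strandedness, the entry is "not given in the sources used here". Deposited FPKM equal those counts over library total and whole gene span of GENCODE M21 for 54229 of 54229 genes compared, within a relative tolerance of 1e-06. Of 55401 identifiers, 55141 matched that release, which gave symbols and coordinates.

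Computed here: edgeR 4.0.16 (R 4.3.3) quasi-likelihood tests with TMM scaling, filterByExpr by group, robust dispersions and adjustment by Benjamini-Hochberg, calling at an adjusted p under 0.05, two-sided. Each region's 3 conditions shared a fit (22 libraries and 35943 genes in NAc, 17 and 32167 in PFC). Region comparisons and interactions came from 1 fit of all 39 (38171 genes). Totals of 941450 to 37339379 counts set the precision, and no column was left unused. No 2 libraries held identical counts. The tests were checked on simulated data.

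Background per library was the FPKM of 1479 chemosensory receptor genes, as a percent of 0.764, the FPKM of an even cover over 1308.8 Mb. The genes described, the lists and the tests were chosen with earlier results of these data known. Fold changes are given for the 4 genes of smallest p among the 32 in each comparison (2 for interactions), levels for all 32, and of other neuronal lists values for the 2 genes of smallest p (1 such gene is not reported here); further genes named with values, and Snap25 in PFC susceptible against control and Scg2 and Nefh between regions, were chosen after their values were seen. Alternatives were RLE scaling, no or a stricter filter (50 counts), DESeq2 1.42.0, limma-voom and limma-trend (limma 3.58.1) on log2(FPKM + 0.5) or log2(FPKM + 0.1), a background covariate, only genes at 2 times background, replicate blocks, leaving out each library, the 3 shallowest or, chosen after seeing the data, 6 PFC libraries. Same-numbered replicates had every correlation over 0.1 only for PFC resilient with PFC control (5 of 5 pairs, lowest 0.2, median 0.445, over 27294 genes). The other PFC pairings had medians of 0.552 for susceptible with resilient (4 of 5 over 0.1) and 0.526 for susceptible with control (5 of 6). Within NAc the medians ran from -0.0665 to 0.168. By consecutive sample numbers, NAc with PFC had medians of 0.281 in susceptible, 0.3 in resilient and -0.171 in control mice. With no shared animal or batch stated for these libraries, the block was kept as an alternative, and the main p-values leave such structure out.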

Additional observations from a re-analysis of the deposited data

Results flagged for a closer look

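For each group of 5 to 8 libraries, the FPKM of each of the 32 genes and their sum were examined for a library standing apart from its group by Dixon's criterion, which chance meets in about 1 in 20 groups. Of 198 levels, 42 met it, all as the highest of their group. The levels of a group share their libraries, and the sum is made of the genes, so they are not independent. The 42 therefore cannot be set against that rate, and the rate over all genes was not counted. PFC susceptible replicate 1 (sample number 3) accounted for 18: its summed level was 142 FPKM, and single genes had Snap25 at 6.24, Syt1 at 2.19, Syt4 at 2.28, Syp at 7.10, Syn1 at 2.47, Syn2 at 1.67, Vamp2 at 30.3, Stx1a at 3.24, Rab3a at 10.1, Sv2b at 1.85, Scg2 at 4.13, Chgb at 6.94, Nefl at 3.68, Tubb3 at 1.02, Thy1 at 12.4, Sncb at 6.72 and Eno2 at 7.51 FPKM. They span all 5 roles, from the SNARE and vesicle membrane genes to Nefl, Tubb3 and the enolase Eno2. Its background was the lowest of all libraries, at 13.4% of an even cover, and its cortical excitatory genes summed to 53.9 FPKM, and the part of either in these values was not tested.

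NAc control replicate 3, the shallowest library, accounted for 11: a summed level of 60.9 FPKM, with Syt1 at 1.17, Syp at 2.30, Cplx2 at 5.83, Scg2 at 7.79, Chga at 2.75, Chgb at 3.23, Nefl at 1.01, Nefh at 2.28, Uchl1 at 2.10 and Eno2 at 3.20 FPKM. All 3 granins are among them. Of its 941450 counts, 2387 fell on the 32 genes together, so single genes rest on few reads. PFC resilient replicate 1 accounted for 6, Syt4 at 3.46, Sv2b at 2.09, Tubb3 at 1.15, Rbfox3 at 1.49, Vsnl1 at 1.68 and Sncb at 8.65 FPKM, and PFC control replicate 2 for 4, Nefm at 1.5, Rbfox3 at 2.05, Thy1 at 12.6 and Sncb at 8.68 FPKM. The others were single genes: Map2 at 1.58 FPKM in NAc control replicate 6, Vamp2 at 15.0 FPKM in NAc resilient replicate 1 and Sncb at 1.96 FPKM in NAc resilient replicate 5.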

How the results depend on the processing

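No stress comparison within a region and neither interaction gained or lost a call among the 32 genes under any alternative run. In NAc against PFC controls, genes called over the whole table (1 by edgeR) were 81 with DESeq2, 16 with limma-voom, 2 with limma-trend on log2(FPKM + 0.1), 297 with the background covariate, 188 over genes above background and 3 with a block by consecutive sample numbers; of the 32 genes (0 by edgeR), DESeq2 called 3, the covariate 12 and the test above background 10, a filter that genes could pass through the PFC libraries where they were high, so that count supports nothing. In susceptible mice (1 gene) they were 5 with DESeq2, 2 above background, 0 with the consecutive-number block, 0 without the 6 low-numbered PFC libraries and 0 to 2 leaving out 1 library at a time. In resilient mice (0 genes), DESeq2 called 55, with 3 of the 32, and the test above background 7; leaving out 1 library gave 0 to 85 genes and 0 to 1 of the 32, the one being Stx1a without PFC resilient replicate 4. limma-voom called 1 gene, not of the 32, for the susceptible interaction. Vamp2 in PFC resilient against control mice was -0.064 under limma-voom and 0.47 by edgeR; the cause was not tested. With the replicate number as a block, the medians over the 32 genes were 0.0017, -0.049 and 0.017 in NAc and -0.35, -0.23 and -0.098 in PFC (susceptible against control, resilient against control, susceptible against resilient) and -0.52, -0.76 and -0.88 for NAc against PFC in susceptible, resilient and control mice, and the block changed no call among them. Depth limits NAc control replicate 3, PFC susceptible replicate 6 and PFC resilient replicate 3, with 941450, 1222948 and 1603943 counts.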
